A study of Mus musculus with 24 samples.

Results

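The interferon regulatory factors (IRFs) are transcription factors that share a DNA-binding domain and control interferon genes and the genes that interferons induce. Their transcripts were followed in primary mouse pulmonary fibroblasts. The 8 genes Irf1, Irf2, Irf3, Irf4, Irf5, Irf7, Irf8 and Irf9 were chosen by name from 55291 gene names counted. Irf4 was too low to test, so 7 of the 8 were among the 16258 genes tested.

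Fibroblasts were grown from pooled lungs (3 to 4 lungs per pool) of C57BL/6 mice aged 4 to 8 weeks, either wild type (WT) or TLR4-/-, and were used at passages 3 to 6. After a night in a low-serum medium they received PBS, recombinant mouse CIRP (rmCIRP, at 1 μg/mL), recombinant mouse TGF-β1 (rmTGF-β1, at 2 ng/mL) or the pair of proteins at the same doses, and were lysed for RNA sequencing at 24 h. CIRP is an RNA-binding protein that acts outside the cell as a damage signal through Toll-like receptor 4 (TLR4). TGF-β1 is a cytokine that drives fibroblasts toward matrix production. Every condition had 3 libraries, which gives 24 libraries over 2 genotypes and 4 treatments. Because each genotype came from pooled lungs and the labels do not tie libraries to separate pools or cultures, p-values measure the spread between libraries, which may be technical.

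Toll-like and nucleic acid receptors lead to phosphorylation of IRF3 and IRF7, which enter the nucleus and start transcription of type I interferon genes. Interferon then acts through its receptor and the Janus kinases, and IRF9 with STAT2 is part of the complex ISGF3, which binds interferon-stimulated response elements. IRF1 is an activator induced by interferon-γ and inflammatory signals, IRF2 its relative and often its antagonist, and IRF5, IRF8 and IRF4 are best known from myeloid cells and lymphocytes.

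The sequences 250 bases upstream of the annotated starts of Irf1, Irf2, Irf7 and Irf8 (RefSeq, GRCm38.p6) are shown because these genes moved in different ways with rmCIRP: Irf1, Irf2 and Irf7 rose and Irf8 fell. The windows lie at chr11:53769764-53770013 (plus strand), chr8:46739495-46739744 (plus strand), chr7:141266425-141266674 (minus strand) and chr8:120736108-120736357 (plus strand), and each is written 5′ to 3′ along its gene. Capitals mark matches, on either strand, to the core of the interferon-stimulated response element (a pair of GAAA half-sites with NN between them), the gamma-activated site bound by STATs (TTCNNNGAA) or the NF-kappaB motif.
Irf1: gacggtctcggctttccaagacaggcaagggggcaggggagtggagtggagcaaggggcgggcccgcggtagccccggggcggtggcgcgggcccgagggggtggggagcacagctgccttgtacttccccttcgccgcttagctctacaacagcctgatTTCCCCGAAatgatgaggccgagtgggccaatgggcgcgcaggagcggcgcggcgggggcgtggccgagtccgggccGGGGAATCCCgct
Irf2: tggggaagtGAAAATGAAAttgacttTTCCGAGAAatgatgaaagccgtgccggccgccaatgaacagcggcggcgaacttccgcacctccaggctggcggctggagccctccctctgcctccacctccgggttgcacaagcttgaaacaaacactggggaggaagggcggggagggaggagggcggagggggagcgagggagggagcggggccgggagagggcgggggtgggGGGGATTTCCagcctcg
Irf7: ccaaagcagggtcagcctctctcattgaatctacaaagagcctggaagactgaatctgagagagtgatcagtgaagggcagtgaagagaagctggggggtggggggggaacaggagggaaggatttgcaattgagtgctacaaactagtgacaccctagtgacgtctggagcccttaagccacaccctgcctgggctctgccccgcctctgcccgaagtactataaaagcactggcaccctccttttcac
Irf8: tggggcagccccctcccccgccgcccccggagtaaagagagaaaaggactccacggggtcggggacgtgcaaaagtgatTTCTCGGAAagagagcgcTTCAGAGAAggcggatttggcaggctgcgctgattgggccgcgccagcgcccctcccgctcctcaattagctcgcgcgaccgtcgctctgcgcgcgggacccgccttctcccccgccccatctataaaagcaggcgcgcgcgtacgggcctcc

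The first start of Irf1 had a gamma-activated site motif 90 to 82 bases before the start and an NF-kappaB motif 13 to 4 bases before it. Irf2 held all 3 motifs, the response element core at 241 to 232, the gamma-activated site motif at 224 to 216 and the NF-kappaB motif at 17 to 8 bases before the start. Irf8 had a pair of gamma-activated site motifs, at 171 to 163 and 153 to 145 bases before its first start. No match lay in the same windows of Irf3, Irf4, Irf5, Irf7 or Irf9, nor at the second annotated starts of Irf1 and Irf8. Among all 32851 promoters of this length, 2.98% held the response element core, 7.02% the gamma-activated site motif and 3.9% the NF-kappaB motif, and no matches of different motifs overlapped in the IRF windows. A match describes letters in the window and not binding.

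The libraries held between 29853300 and 39664600 reads on genes (rounded). Levels are given as normalized counts, which are counts divided by a size factor per library. A gene was called when its adjusted p in edgeR's quasi-likelihood test was under 0.1 with Benjamini-Hochberg adjustment over all 16258 genes. The targeted gene did not check the genotype labels: Tlr4 had 580 to 803 counts in WT libraries and 741 to 957 in libraries labelled TLR4-/-, so total counts gave no loss of the transcript. All comparisons of genotype below are of libraries so labelled. The genotypes also differed in Xist, which had 0 to 3 counts in WT and 4403 to 6201 in TLR4-/- libraries. Counts of the Y-linked Ddx3y ran from 3476 to 5044 in WT and from 1738 to 2716 in TLR4-/- libraries. Neither genotype thus lacked Ddx3y, and only the TLR4-/- libraries held both transcripts at high counts. Sex makeup of the pools and genotype cannot be told apart. Markers of fibroblasts were high in every library, with a summed level of 681665 to 903950 normalized counts over 10 genes. Markers of macrophages were present too, and their summed level over 14 genes was 92083 to 100270 in WT and 351996 to 402711 in TLR4-/- libraries with PBS. Most of that sum was Lyz2, with a mean of 78175 in WT and 281642 in TLR4-/- libraries with PBS. Of 21 marker genes of dendritic, B, T, endothelial and epithelial cells, 12 had at most 11 counts in every library. In the TLR4-/- group, replicate 3 of the pair of agents and replicate 3 with rmTGF-β1 stood apart from the other libraries of their conditions. The chi-square per degree of freedom between replicates was 45.7 and 31.3 for the first and 11.9 and 15.6 for the second, against at most 7.03 in the other 20 pairs. Values without these libraries are given for some of the results where they enter a comparison.

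**Figure D1:**
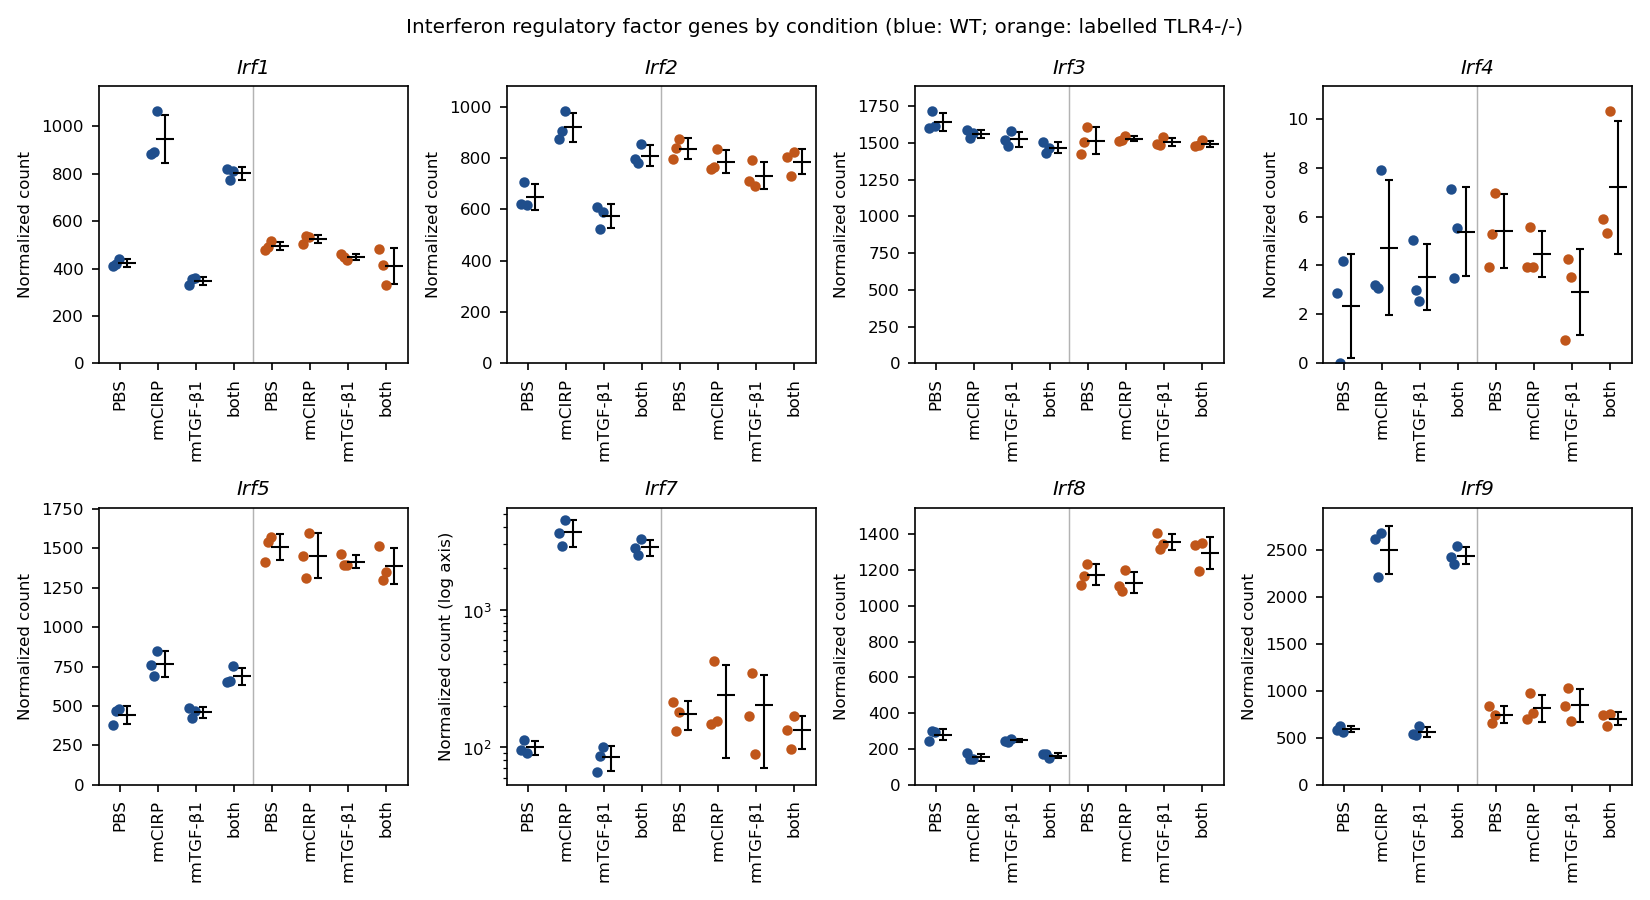
Normalized counts of the 8 IRF genes in 24 libraries (points), with the mean and SD of 3 libraries per condition beside them (bars); blue is WT and orange is TLR4-/- by label, and the Irf7 axis is logarithmic. Irf7 and Irf9 are high in the 6 WT libraries that received rmCIRP, and Irf5 and Irf8 are high in all 12 TLR4-/- libraries.

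rmCIRP raised 5 of the 7 tested IRF genes in the WT cultures and lowered Irf8. The share of all genes called in the same comparison was 43.9%, with 19.8% higher and 24.1% lower. The median log2 fold change was 0.78 over the 7 IRF genes and -0.02 over all genes tested. The increases ranged from 0.50 for Irf2 to 5.19 for Irf7 on the log2 scale, and Irf3 was not called.

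Irf7, the interferon-inducible factor that amplifies type I interferon production, changed most. Its normalized counts were 95.3, 113 and 90.6 in the 3 WT libraries with PBS and 3613, 2896 and 4482 with rmCIRP. Every rmCIRP library was thus far above every PBS library. The increase was 36.6-fold, or 5.19 on the log2 scale (SE 0.36, adjusted p = 8.71e-11). When rmCIRP was added to rmTGF-β1, Irf7 went from 84.0 ± 17.6 to 2849 ± 380 normalized counts (SD, n = 3), a change of 5.06 on the log2 scale (SE 0.36, adjusted p = 2.15e-10).

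Irf9, the DNA-binding subunit of ISGF3, had 587, 629 and 565 normalized counts with PBS and 2615, 2212 and 2685 with rmCIRP. The groups did not overlap, and the increase was 4.20-fold (log2 fold change 2.07, SE 0.13, adjusted p = 1.36e-11). On top of rmTGF-β1 the change was 2.10 on the log2 scale (SE 0.13, adjusted p = 1.22e-11). Irf9 shares 123 bases of its annotated span with Rnf31 on the same strand, and Rnf31 itself rose by 0.48 on the log2 scale (adjusted p = 8.63e-06). Reads in the shared stretch cannot be assigned to either gene. Irf8 lies within an intron of Gm20388, annotated on the same strand over 20337 bases, and their exons share 0 bases. On the opposite strand, Gm17334 shares 135 exon bases with Irf1 and rose 2.83-fold with rmCIRP in WT (adjusted p = 0.0317), with at most 22 counts in any library.

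Irf1 had 411, 417 and 441 normalized counts with PBS and 885, 893 and 1064 with rmCIRP. All rmCIRP libraries lay above all PBS libraries, with a change of 1.16 on the log2 scale (SE 0.09, adjusted p = 5.02e-10), or 2.23-fold. Irf2 rose less, from 648 ± 50.2 to 920 ± 56.4 normalized counts (SD, n = 3), a change of 0.50 on the log2 scale (SE 0.07, adjusted p = 7.10e-06). On top of rmTGF-β1 the log2 fold changes were 1.20 for Irf1 (adjusted p = 5.13e-10) and 0.49 for Irf2 (adjusted p = 1.30e-05).

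Irf3, the factor that is held ready in the cytoplasm and activated by phosphorylation, moved little in its transcript. Its normalized counts were 1643 ± 61.8 with PBS and 1560 ± 28.7 with rmCIRP (SD, n = 3). The 3 rmCIRP libraries lay below the 3 PBS libraries, but the log2 fold change of -0.08 (SE 0.04) was not called (adjusted p = 0.128). On top of rmTGF-β1 it was -0.06 (adjusted p = 0.264), with overlapping libraries.

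Irf5 and Irf8 moved in opposite directions. Irf5, an activator of inflammatory cytokine genes downstream of Toll-like receptors, had 380, 470 and 484 normalized counts with PBS and 759, 690 and 850 with rmCIRP. The groups did not overlap (log2 fold change 0.78, SE 0.10, adjusted p = 9.85e-07). Irf8, a factor required for monocyte and dendritic cell development, had 245, 302 and 294 normalized counts with PBS and 178, 142 and 143 with rmCIRP. Every rmCIRP library was lower, and Irf8 fell by 0.86 on the log2 scale (SE 0.10, adjusted p = 2.29e-07). On top of rmTGF-β1, Irf5 rose by 0.58 (adjusted p = 5.89e-05) and Irf8 fell by 0.61 (adjusted p = 3.38e-05). Across that comparison 6 of 7 IRF genes were called, against 42.2% of all genes.

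Macrophage markers moved in the same libraries. In WT with rmCIRP, 10 of the 14 macrophage markers were lower and 4 higher (Adgre1, Ptprc, Fcgr1 and Fcer1g), with a median log2 fold change of -0.36, and their summed level fell from 92083 to 100270 with PBS to 77928 to 82685 with rmCIRP. The range over the 14 markers was -0.71 (Mrc1) to 2.26 (Fcgr1). The fibroblast markers had a median of -0.25, with 6 lower and 2 higher of 10. In such bulk libraries fewer cells of a type and less RNA per cell cannot be told apart. The part of macrophages and of fibroblasts in the changes of the IRF genes, Irf7, Irf9 and Irf1 included, was not tested. Defining markers of the other cells that use Irf4 and Irf8 were in part at or near 0, as Cd3e, Cd3g, Siglech and Cd209a had at most 1 count in any library. Other markers on the same lists were present. Zbtb46, a dendritic cell factor, had 175 to 286 counts in every library. Cd4, a T cell coreceptor gene, had a mean of 6.02 normalized counts in WT and 33.2 in TLR4-/- libraries with PBS, a log2 difference of 2.44 (adjusted p = 2.94e-05). Pax5, a B cell factor, had a mean of 1.01 normalized counts with PBS and 55.9 with rmCIRP in WT. Xcr1, a dendritic cell receptor gene, also went from 22.6 to 79.9 normalized counts, and the summed level of the 5 dendritic cell markers went from 204 to 234 with PBS to 281 to 315 with rmCIRP. Most of that rise was Xcr1, as Zbtb46 went from a mean of 200 to 214 and was not called (adjusted p = 0.525). Flt3, Siglech and Cd209a had at most 2 counts in any library and were not tested.

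Irf4, a factor of plasma cells and of alternatively activated macrophages, had 0 to 10 counts in every library and no condition brought it above the filter on low counts. Its mean was 2.35 ± 2.13 normalized counts in WT with PBS and 4.72 ± 2.75 with rmCIRP (SD, n = 3). No fold change is given at this depth.

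**Figure D2:**
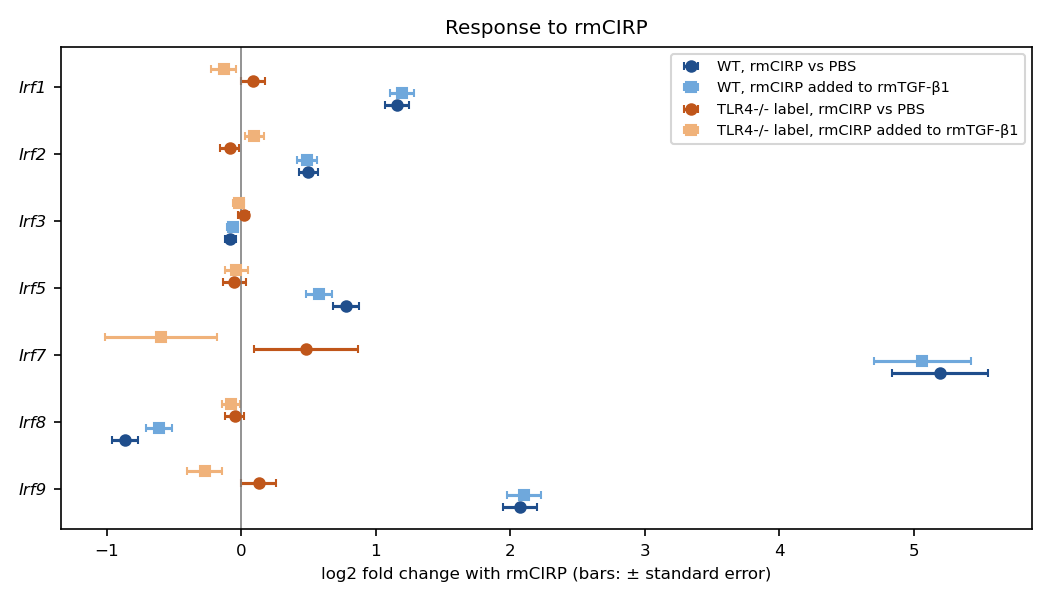
Log2 fold changes of the 7 tested IRF genes with rmCIRP (points) and their standard errors (bars), in WT (blue) and TLR4-/- libraries (orange), against PBS (circles) or on top of rmTGF-β1 (squares). Irf7, Irf9 and Irf1 stand far right of 0 in WT, and the TLR4-/- points lie between -0.59 and 0.48.

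None of the 7 IRF genes was called for rmCIRP against PBS in the TLR4-/- libraries, where edgeR called 0% of all genes. At an unadjusted p under 0.05 there were 1136 genes and no IRF gene, and DESeq2 called 32 genes. Irf7 had 212, 130 and 180 normalized counts with PBS and 146, 423 and 154 with rmCIRP. The groups overlapped and rmCIRP replicate 2 stood apart from the other two. Its change was 0.48 on the log2 scale (SE 0.39, adjusted p = 0.888), and it was -0.22 without that library (adjusted p = 1.00). The other log2 fold changes were 0.13 for Irf9, which was -0.03 without the same library, 0.09 for Irf1, 0.02 for Irf3, -0.05 for Irf5, -0.05 for Irf8 and -0.08 for Irf2. All 7 genes had overlapping libraries, and the share of all genes with such overlap was not computed. When the low-count filter was dropped, Irf7 passed the threshold at 0.48 (adjusted p = 8.28e-05).

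Added to rmTGF-β1, rmCIRP again gave no IRF call in the TLR4-/- libraries, by edgeR or DESeq2, against 2.69% of all genes. That share rested on single libraries. The 437 genes called became 0 without rmTGF-β1 replicate 1, 79 without rmTGF-β1 replicate 2, 2141 without rmTGF-β1 replicate 3, and 2674, 738 and 1 without replicates 1, 2 and 3 of the pair of agents. Irf7 had a change of -0.59 on the log2 scale (SE 0.42, adjusted p = 0.485), Irf9 of -0.27 (unadjusted p = 0.0491, adjusted p = 0.277) and Irf1 of -0.13 (adjusted p = 0.495). The rmTGF-β1 libraries had 169, 348 and 89.5 normalized counts of Irf7, and without the library at 348 the log2 fold change was 0.02 for Irf7 and -0.11 for Irf9. Without rmTGF-β1 replicate 3, which stood apart, Irf9 was called at -0.41 (adjusted p = 0.0497) and Irf7 was at -0.97 (adjusted p = 0.137). Without replicate 3 of the pair of agents, the values were -0.79 for Irf7, -0.31 for Irf9 and 0.00082 for Irf1, and none was called. Irf1 was called without replicate 1 of the pair (-0.25, adjusted p = 0.0674). Without the low-count filter Irf7 (adjusted p = 9.44e-08) and Irf9 (adjusted p = 0.00134) passed.

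The response to rmCIRP itself differed between genotypes for 6 of the 7 IRF genes in the test of that difference, against 31.4% of all genes. The log2 fold change was smaller in TLR4-/- libraries by 4.71 for Irf7 (log2 difference -4.71, SE 0.55, adjusted p = 1.02e-06), with differences of -1.94 for Irf9 (SE 0.18, adjusted p = 3.96e-08) and -1.07 for Irf1 (SE 0.13, adjusted p = 1.20e-06). Irf5 differed by -0.83 (SE 0.13, adjusted p = 4.16e-05) and Irf2 by -0.58 (SE 0.10, adjusted p = 0.000143). Irf8 differed in the other direction, by 0.82 (SE 0.12, adjusted p = 1.94e-05). Irf3 differed by 0.10 (SE 0.06) and was not called (adjusted p = 0.228).

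Before any stimulus the genotypes already differed in this family, chiefly in the myeloid members. With PBS, Irf8 had 245, 302 and 294 normalized counts in WT and 1117, 1166 and 1233 in TLR4-/- libraries. Irf5 had 380, 470 and 484 in WT and 1416, 1537 and 1574 in TLR4-/- libraries. Both genes were higher in every TLR4-/- library, by 2.06 for Irf8 (SE 0.08, adjusted p = 1.13e-15) and 1.76 for Irf5 (SE 0.09, adjusted p = 3.23e-13) on the log2 scale, which is 4.18-fold and 3.39-fold. Across this comparison 6 of 7 IRF genes were called, against 47.1% of all genes.

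The other differences with PBS were small. Irf2 was higher by 0.37 (adjusted p = 0.000242), Irf9 by 0.33 (adjusted p = 0.0515) and Irf1 by 0.22 (adjusted p = 0.0563), with no overlap between the libraries. Irf3 was lower by a log2 fold change of -0.12 (adjusted p = 0.0197) with overlapping libraries. Bcl2l12, which shares 88 exon bases with Irf3 on the opposite strand, was lower too, by -0.27 (adjusted p = 0.0128), and its part in the Irf3 value was not tested. Irf3 was not called when only the libraries compared were fitted (adjusted p = 0.106) or without the low-count filter (adjusted p = 0.210). Irf1, Irf3 and Irf9 each lost the call in fits that left out a library, Irf1 without WT replicate 1 or TLR4-/- replicate 3, Irf3 without WT replicate 2 or TLR4-/- replicate 1, and Irf9 without WT replicate 3 or TLR4-/- replicate 1. Irf7 had a change of 0.81 on the log2 scale (SE 0.45) that was not called (adjusted p = 0.165), although its libraries did not overlap, and it was called when only the libraries compared were fitted (adjusted p = 0.00159) and without the low-count filter (adjusted p = 7.51e-14).

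Macrophage markers rose with Irf5 and Irf8. All 14 were higher in TLR4-/- libraries with PBS, by 1.49 (Mertk) to 2.81 (C1qa) on the log2 scale with a median of 2.19, and the median of their summed level was 3.73 times that of WT. The 10 fibroblast markers had a median log2 change of 0.00, with 3 lower and 1 higher. Of the 4 endothelial markers 3 were lower and none higher. Spi1, which encodes PU.1, the DNA-binding partner of IRF8 and IRF4, was higher by 2.29. The part of macrophages in the higher Irf5 and Irf8 levels was not tested.

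**Figure D3:**
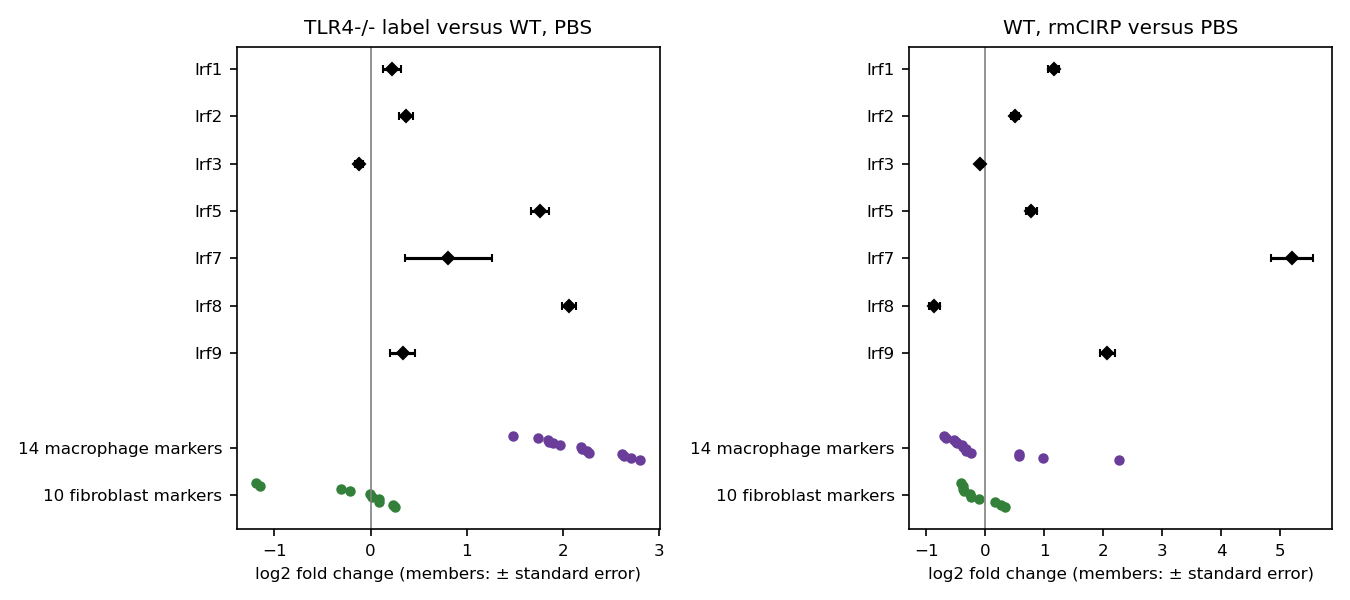
Log2 fold changes of the 7 tested IRF genes (diamonds, with standard errors), 14 macrophage markers (purple) and 10 fibroblast markers (green), for TLR4-/- against WT libraries with PBS (left) and for rmCIRP against PBS in WT (right). On the left Irf5 at 1.76 and Irf8 at 2.06 lie within the range of the macrophage markers, 1.49 to 2.81, and on the right Irf7 at 5.19 lies beyond every marker.

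With rmCIRP in both genotypes, 6 of 7 IRF genes again differed, against 59.5% of all genes, but in different directions. Irf7 was lower in TLR4-/- libraries by a log2 fold change of -3.90 (adjusted p = 3.86e-10), Irf9 by -1.61 (adjusted p = 1.81e-10), Irf1 by -0.84 (adjusted p = 2.00e-08) and Irf2 by -0.22 (adjusted p = 0.0106). Irf8 was higher by 2.88 (adjusted p = 1.03e-17) and Irf5 by 0.93 (adjusted p = 5.73e-09). Irf3 did not pass (log2 fold change -0.02, adjusted p = 0.663). All 14 macrophage markers were higher here too, with a median of 2.26. This comparison and those above share their WT and TLR4-/- libraries, so they are not independent of each other.

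rmTGF-β1 alone moved the family by small amounts. In WT, Irf1 had 411, 417 and 441 normalized counts with PBS and a range of 330 to 359 with rmTGF-β1. It was lower by 0.28 on the log2 scale (log2 fold change -0.28, SE 0.09, adjusted p = 0.0653), and Irf3 had a change of -0.11 on the log2 scale (SE 0.04, adjusted p = 0.0944). Only these 2 of 7 were called, against 12.4% of all genes, and both calls were lost in most fits that left out a library. Irf2 at -0.18 (adjusted p = 0.143) and Irf8 at -0.18 (adjusted p = 0.243) were not called. Added to rmCIRP, rmTGF-β1 gave -0.24 for Irf1 (adjusted p = 0.0517) and -0.19 for Irf2 (adjusted p = 0.0745). These were 2 of 7 genes called (28.6%), near the 20.5% called over all genes. Irf3 at -0.09 (adjusted p = 0.142) and Irf8 at 0.08 (adjusted p = 0.697) did not pass. The Irf1 call was lost in 2 of 6 fits that left out a library, without rmCIRP replicate 3 (-0.14) or replicate 2 of the pair of agents (-0.22). The Irf2 call was lost in 4 of 6, without rmCIRP replicate 2 (-0.19) or 3 (-0.13) or replicate 1 (-0.17) or 2 (-0.17) of the pair.

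In TLR4-/- libraries with rmTGF-β1, Irf8 was called higher and Irf2 lower, in calls that depended on single libraries. Irf8 had 1117, 1166 and 1233 normalized counts with PBS and 1407, 1317 and 1344 with rmTGF-β1. The groups did not overlap (log2 fold change 0.22, SE 0.07, adjusted p = 0.0282). Irf2 had a log2 fold change of -0.19 (adjusted p = 0.0665) and Irf1 of -0.14 (adjusted p = 0.320). The calls were 2 of 7 genes (28.6%), near the 23.9% called over all genes. The Irf8 call was lost in 2 of 6 fits, without PBS replicate 1 (0.18, adjusted p = 0.122) or rmTGF-β1 replicate 1 (0.19, adjusted p = 0.111). It held without rmTGF-β1 replicate 3 (0.22, adjusted p = 0.0600), which stood apart. The Irf2 call was lost in 4 of 6, without PBS replicate 2 (-0.19) or 3 (-0.16) or rmTGF-β1 replicate 1 (-0.17) or 3 (-0.15). The 3884 genes called over all genes became 2517 without rmTGF-β1 replicate 3. With rmTGF-β1 added to rmCIRP, Irf1 was called lower (log2 fold change -0.36, adjusted p = 0.00587) and Irf8 higher (0.19, adjusted p = 0.0401, overlapping libraries). These were 2 of 7 genes (28.6%), no more than the 32.8% called over all genes. Irf1 had 482, 417 and 332 normalized counts with the pair of agents, and the lowest value was that of replicate 3, which stood apart. Without that library its log2 fold change was -0.23 (adjusted p = 0.0424), and over the 6 fits it ran from -0.49 to -0.23. Irf1 was not called when only the libraries compared were fitted (adjusted p = 0.110). The Irf8 call was lost without that same library (0.16, adjusted p = 0.122) or without rmCIRP replicate 2 (0.18, adjusted p = 0.118). Irf7 at -0.90 (SE 0.40, adjusted p = 0.109) was not called, and without rmCIRP replicate 2 it was -0.19. Over the 6 fits that left out a library Irf7 ran from -1.14 to -0.19, and 2 of these fits called it lower. Macrophage markers had a median log2 change of 0.03 for rmTGF-β1 against PBS and 0.14 for rmTGF-β1 added to rmCIRP, with 1 and 4 of 14 higher and 1 lower in each, which was Mrc1 (-0.43 and -0.24). For rmTGF-β1 added to rmCIRP, 3 of 4 endothelial markers were also higher, among them Pecam1 (1.41) and Cdh5 (1.12), as was Xcr1 (1.17). Replicate 3 of the pair of agents held the highest summed level of the endothelial markers, 737 normalized counts against 390 and 309 in the other libraries of its condition, and of the macrophage markers, 438625 against 385507 and 351617. The part of these cells in the IRF values was not tested.

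For the 2 agents together, no departure from additivity on the log2 scale was called for any IRF gene in WT. In the interaction test the log2 differences ran from -0.20 (Irf5) to 0.25 (Irf8), the lowest adjusted p was 0.910, and edgeR called 0.0492% of all genes. No IRF gene had an unadjusted p under 0.05, and DESeq2 called no IRF gene. Irf7, at -0.13, had an SE of 0.57, so a departure of that order could go uncalled. The response to rmTGF-β1 was also not called different between genotypes (0.0861% of all genes), with the widest differences for Irf7 (0.41, SE 0.65, adjusted p = 0.883) and Irf8 (0.39, SE 0.11, adjusted p = 0.180). Irf8 there had an unadjusted p of 0.00175 and was called by DESeq2 (0.38, adjusted p = 0.0962). Without TLR4-/- rmTGF-β1 replicate 3 the differences were 0.79 for Irf7 and 0.40 for Irf8, and neither was called.

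Levels of different genes were compared per length, as RPKM, that is reads per kilobase of exon scaled to the reads on genes of each library. With PBS in WT the order was Irf3 at 14.4, Irf5 at 4.60, Irf9 at 3.31, Irf1 at 3.20, Irf2 at 2.63, Irf8 at 1.19, Irf7 at 0.79 and Irf4 at 0.014. The libraries of Irf9 and Irf1 overlapped, and the other neighbours did not. With rmCIRP Irf7 went from rank 7 to rank 1, at 28.2, ahead of Irf9 at 13.5 and Irf3 at 13.2, whose libraries overlapped. Irf5 at 7.68 and Irf1 at 6.94 followed with overlapping libraries, then Irf2 at 3.62, Irf8 at 0.64 and Irf4 at 0.028. In TLR4-/- libraries with PBS the order was Irf5 at 15.7, Irf3 at 13.3, Irf8 at 5.02, Irf9 at 4.20, Irf1 at 3.76, Irf2 at 3.42, Irf7 at 1.40 and Irf4 at 0.033. There too the libraries of Irf9 and Irf1 overlapped. Exon lengths were those of GENCODE M21, and the submitters' annotation release is not given in the sources used here, so these levels are approximate.

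**Figure D4:**
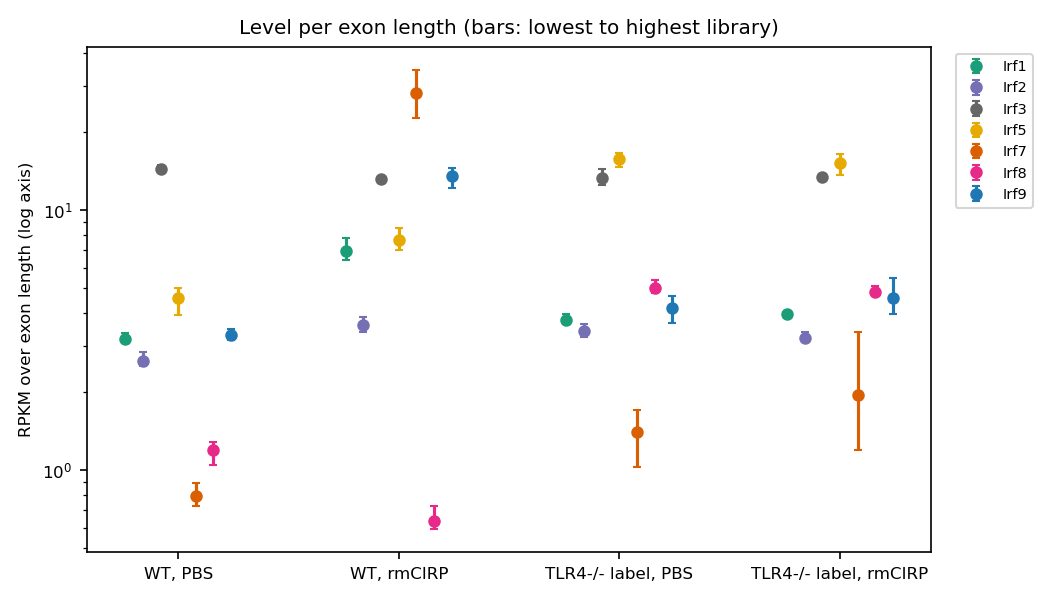
RPKM over exon length (logarithmic axis) for the 7 tested IRF genes in 4 conditions, as the mean of 3 libraries with a bar from the lowest to the highest. Irf7 goes from 0.79 with PBS to 28.2 with rmCIRP in WT, whereas Irf5 is the highest in both TLR4-/- conditions.

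Genes of the pathway were described from lists around the IRFs. The lists were chosen with earlier results of these data known, so their counts are a description and no independent support. For the counts that follow, rmCIRP in WT gave 19.8% of all genes higher and 24.1% lower. In the TLR4-/- libraries 0% of all genes were called for rmCIRP, so a list with no call there is not particular to that list. Of 17 sensors and signalling genes upstream, 12 were higher and none lower with rmCIRP in WT, with a median log2 fold change of 0.36. The RNA sensors Ifih1 (4.35, adjusted p = 4.17e-13) and Ddx58 (2.49, adjusted p = 8.25e-11) rose most, and Tbk1, the kinase that phosphorylates IRF3, rose by 0.30 (adjusted p = 1.31e-05). In the TLR4-/- libraries none of the 17 was called. The response differed between genotypes for 12 of 17, all toward a smaller value in TLR4-/- libraries, against 31.4% of all genes.

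Among 12 interferon and JAK-STAT genes, 9 could be tested, of which 8 were higher and 1 lower, with a median of 0.30. Stat2, a subunit of ISGF3, rose by 3.24 (adjusted p = 1.24e-11), and the interferon-γ receptor gene Ifngr1 was lower (log2 fold change -0.10, adjusted p = 0.0884). Ifnb1, the interferon-β gene, had at most 3 counts in every library at 24 h. None of the 9 was called in TLR4-/- libraries (0% of all genes), and 7 differed between genotypes (31.4% of all genes).

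Of 12 partners and regulators, 11 could be tested, of which 10 were higher and 1 lower with rmCIRP in WT, with a median of 1.68. Usp18, a brake on interferon receptor signalling, rose by 6.20 (adjusted p = 4.22e-10), and Batf2, a partner of IRF1 and IRF8, by 4.31 (adjusted p = 6.37e-10). Spi1 rose by 0.53 (adjusted p = 5.15e-05) while its partner Irf8 fell. Irf2bpl, named for its likeness to the IRF2-binding proteins, fell by 0.22 on the log2 scale (adjusted p = 0.000746). None was called in TLR4-/- libraries (0% of all genes), and 9 of 11 differed between genotypes (31.4% of all genes).

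All 15 tested genes of 16 known IRF and interferon targets were higher with rmCIRP in WT, by a median of 6.60. Ccl5, a chemokine, went from 12.2 to 3838 normalized counts (log2 fold change 8.26, adjusted p = 3.66e-20). Il12b, the shared subunit of interleukins 12 and 23, had 0 counts in every WT library with PBS and 868 to 1156 with rmCIRP, so it was at least 357-fold higher against a floor of 3 counts per library. Il12b passed the filter on low counts only through the WT libraries that received rmCIRP. Its calls as higher and as different between genotypes were thus fixed in advance and add nothing to the counts for this list. The median stayed at 6.60 with Il12b at that bound. None of the 15 was called in TLR4-/- libraries (0% of all genes), where their median was -0.06, and all 15 differed between genotypes (31.4% of all genes).

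The genes with the most similar pattern were found by Pearson correlation over the 8 condition means, among 12311 genes, as a description. Irf7 was closest to Stat2, Irgm2 and Isg15 (r = 0.999 for each), and Irf9 to Stat2, Isg15 and Irgm2 (r = 0.999 for each). The correlation of Irf7 with Irf9 was 0.998. Irf1 was closest to Mov10 (0.997), Gm4070 (0.995) and Trafd1 (0.993). Irf8 was closest to Fuca2, Mfsd6 and Sh2d1b1 (0.999 for each), Irf5 to Ctsc (0.998), Pf4 (0.998) and Akna (0.997), Irf2 to Cd302 (0.987), Ppp1r9a (0.984) and Glrx (0.979), and Irf3 to Usp2 (0.962), Gm10073 (0.960) and Taf1b (0.949). All points share the same 24 libraries, and 8 conditions of 2 genotypes give few independent points.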

How the data were processed

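RNA from 24 libraries was sequenced by the authors from a stranded total RNA kit. The deposited files hold raw counts of reads per gene for each library. The submitters' processing notes name FastQC, HTSeq and the build NCBIM37. Per the methods of the study, reads were aligned with STAR against the GENCODE mouse reference. The annotation release and the strand setting of the counting are not given in the sources used here. Without the strand setting, reads of Irf1, Irf3, Irf5 and Irf7 in shared exons cannot be told apart from those of genes that overlap them on the opposite strand in GENCODE M21. Of these neighbours, Gm17334 (beside Irf1) was 2.83-fold higher with rmCIRP in WT, and Bcl2l12 (beside Irf3) changed by -0.14, Tnpo3 (beside Irf5) by 0.09 and Phrf1 (beside Irf7) by 0.03 on the log2 scale. For TLR4-/- against WT with PBS the log2 changes of these 4 were 1.32, -0.27, -0.10 and -0.12. The neighbours of Irf2 on that strand had at most 3 counts and share no exon bases with it.

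Counts were tested with edgeR 4.0.16 (R 4.3.3; quasi-likelihood, TMM, filterByExpr, 1 mean per condition over all 24 libraries, Benjamini-Hochberg over 16258 genes, called at adjusted p under 0.1, the cut-off of the study). DESeq2 1.42.0 gave size factors and an alternative test. From 14.5% to 16.1% of tallied reads were on no single gene and were left out. Replicates differed by more than counting noise (chi-square per degree of freedom 2.52 to 45.7 in 24 pairs, median 4.71). With 3 libraries against 3, an exact permutation test of a single value cannot go below 0.1. Scripts were tested on simulated data. Named genes were the 8 IRFs, the 3 genes most alike each tested one (mean of at least 50 normalized counts), and from each pathway list the 2 largest called rises and falls with rmCIRP in WT, plus Ifnb1, Stat2, Spi1 and Tbk1 (a further gene of the rule is not reported here); marker genes and overlapping neighbours are named as checks, and Pax5, Xcr1, Zbtb46, Cd4, Pecam1 and Cdh5 were named after their values were seen. The IRF genes and lists were chosen with earlier results of these data known.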

Additional observations from a re-analysis of the deposited data

Results flagged for a closer look

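The response to rmCIRP differed between the genotypes for 6 IRF genes in edgeR's test of the difference (TLR4-/- minus WT response, log2 scale, 3 libraries per condition). The values were -4.71 for Irf7, -1.94 for Irf9, -1.07 for Irf1, -0.83 for Irf5, -0.58 for Irf2 and 0.82 for Irf8, and all 6 kept their direction and their call in the 12 fits that each left out 1 library. The summed level of the macrophage markers also differed between the genotypes, with 92083 to 100270 normalized counts in WT and 351996 to 402711 in TLR4-/- libraries with PBS, and its part in these differences was not tested.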

How the results depend on the processing

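The 6 IRF calls for rmCIRP against PBS in WT, for rmCIRP added to rmTGF-β1 in WT and for the genotypes with rmCIRP were 6 in each alternative and each fit that left out 1 library. For rmTGF-β1 against PBS in WT the count went from 2 to 1 with DESeq2, with a mean count of at least 10, without the low-count filter, with only the libraries compared and with RLE normalization, as Irf3 was lost. Without the low-count filter the count went from 0 to 1 for rmCIRP against PBS in TLR4-/- libraries, from 0 to 2 for rmCIRP added to rmTGF-β1 and from 2 to 4 for rmTGF-β1 added to rmCIRP there. With only the libraries compared the last of these was 1. The genotype difference in the rmTGF-β1 response went from 0 to 1 with DESeq2 and without the filter. The cause was not tested. Counts over fits that left out 1 library ranged from 0 to 2 for rmTGF-β1 against PBS in WT, 0 to 2 for rmTGF-β1 added to rmCIRP in WT, 0 to 2 for rmTGF-β1 against PBS in TLR4-/- libraries, 0 to 1 for rmCIRP added to rmTGF-β1 there and 1 to 3 for rmTGF-β1 added to rmCIRP there, 4 to 6 for the genotypes with PBS and 6 to 7 for the genotype difference in the rmCIRP response. Some uncalled values changed sign on leaving out a library, and those named here may not be a full list. For rmCIRP against PBS in TLR4-/- libraries these were Irf3 (range -0.026 to 0.059), Irf5 (-0.12 to 0.012), Irf7 (-0.22 to 0.73) and Irf9 (-0.028 to 0.23). For rmCIRP added to rmTGF-β1 there they were Irf1 (-0.25 to 0.00082) and Irf7 (-0.97 to 0.023), and Irf7 ranged from -0.20 to 0.79 for the genotype difference in the rmTGF-β1 response. For rmTGF-β1 against PBS in TLR4-/- libraries, Irf7 was 0.18 with all libraries and -0.44 without rmTGF-β1 replicate 2.

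With the replicate number as a block every count of IRF calls was the same as without it (6 for rmCIRP against PBS in WT, where Irf7 was 5.20), and it changed no IRF call. Deviations of same-numbered libraries correlated by 0.011 on average (-0.11 to 0.35), and 13 of 24 libraries correlated best with their own number, so the numbers were not taken as pairs. Over all genes the block moved the calls for rmCIRP added to rmTGF-β1 in TLR4-/- libraries from 437 to 810; DESeq2 gave 924, no filter 1580 and only the libraries compared 0, and fits that left out 1 library gave 0 to 2674. For rmCIRP against PBS in TLR4-/- libraries the 0 calls became 32 with DESeq2, 149 without the filter, 29 with only the libraries compared and 1 with the block. For rmTGF-β1 added to rmCIRP there, 5329 became 2710 with only the libraries compared. For the genotype difference in the rmTGF-β1 response 14 became 173 with DESeq2, 23 with a mean count of at least 10, 563 without the filter and 22 with the block, and for the interaction in WT 8 became 39 with DESeq2, 198 without the filter and 125 with only the libraries compared. Leaving out 1 library gave 1029 to 1690 calls against 2019 for rmTGF-β1 against PBS in WT, 2517 to 3783 against 3884 in TLR4-/- libraries, 0 to 119 against 14 for the genotype difference in the rmTGF-β1 response and 2 to 7 against 8 for the interaction.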

Other observations

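Within the 12 TLR4-/- libraries, Irf7 varied 4.73-fold, from 89.5 to 423 normalized counts with a median of 161, whereas Irf3 varied 1.13-fold, Irf5 1.23-fold and Irf8 1.30-fold. The highest values of Irf7 were in replicate 2 with rmCIRP (423) and replicate 2 with rmTGF-β1 (348), which were chosen after their values were seen. The same libraries held the highest levels of Isg15, an interferon-induced ubiquitin-like protein gene, which reached 697 normalized counts against a median of 231. They also held the highest levels of Stat2 (up to 1237, median 730), Irgm2 (up to 631, median 314) and Irf9 (up to 1028, median 747). Isg15, Stat2 and Irgm2 were picked as the genes most like Irf7 and Irf9 over condition means that include these libraries. Their high levels here were thus partly built into that choice and are no independent support. Irf1 did not stand out in these libraries. It had 447 normalized counts in replicate 2 with rmTGF-β1, between 460 and 434 in replicates 1 and 3. With rmCIRP it had 504, 535 and 535 in replicates 1, 2 and 3. The summed macrophage markers, mostly Lyz2, lay within 339746 to 386086 normalized counts in the 3 TLR4-/- libraries with rmCIRP and within 369159 to 387231 in those with rmTGF-β1.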
